A study of Mus musculus with 6 samples.

Results

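The immediate early transcription factor genes Fos, Fosb, Fosl1, Fosl2, Jun, Junb, Jund, Egr1, Ier2 and Ier3 were examined in N2a cells after siRNA against the circular RNA circRtn4. They were chosen by gene symbol from known Fos, Jun, Egr and Ier genes, and their 10 symbols were each found once among the 54532 genes of the deposited table. N2a, a neuroblastoma line from mouse, was maintained in Minimum Essential Medium with 10% fetal bovine serum, with 3 libraries from cells given the control siRNA (si-NC) and 3 from cells given si-circRtn4. The labels do not say whether libraries of a group came from separate cultures, so the p-values measure the spread between these libraries, which may be technical. A single cell line and a single siRNA sequence stand behind the comparison. Serum itself induces these genes, so the medium at harvest bears on their level. The labels of these libraries name only the growth medium, whereas the general methods of the study have transfected N2a cells moved to a low-serum differentiation medium with retinoic acid on the day after transfection and harvested days later. Which of the media the sequenced cells were in is not stated for these libraries.

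Immediate early genes are transcribed within minutes of a growth factor, serum, depolarization or stress signal, without need of new protein synthesis. Fos and Jun proteins pair through leucine zippers as the AP-1 transcription factor, in which Jun proteins can pair among themselves while Fos proteins need a partner. In neurons and neuroblastoma cells these genes serve as markers of recent activity, and AP-1 and the zinc finger factor EGR1 have been tied to neurite growth. Their mRNAs are short-lived, and many carry AU-rich elements (repeats of ATTTA) in the 3′ UTR that speed their decay.

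The sequences of the molecules of the study are shown because their seeds decide which mRNAs they could pair with. The siRNA is given as listed (sense strand), followed by its reverse complement, which is the guide strand, and by the mature mmu-miR-24-3p of RefSeq, the microRNA that the study connects with circRtn4. Capitals mark bases 2 to 8, the seed.
si-circRtn4 as listed: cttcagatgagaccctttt
si-circRtn4 guide strand: aAAAGGGTctcatctgaag
mmu-miR-24-3p: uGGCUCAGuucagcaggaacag
The match to the miR-24-3p seed, CTGAGCC, was absent from the annotated 3′ UTR of each of these 10 genes, whereas 19.6% of the 10694 protein-coding genes tested held it. The match to the guide seed, ACCCTTT, was found once, in the 3′ UTR of Fosb, and 12.5% of those genes held it. That site lies on the minus strand of chromosome 7 (GRCm38, chr7:19304738-19304744) and is shown with its neighbouring bases, the match in capitals.
Fosb 3′ UTR: tgtgtgtgtggACCCTTTgactcttctgt
These matches are descriptions of sequence, and the 3′ UTRs are those of GENCODE M21.

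No difference between si-circRtn4 and si-NC passed the test for any of these genes. Of the 10, 8 had a mean of at least 1 FPKM (fragments per kilobase of gene length, scaled to the depth of the library) over the 6 libraries and were tested with limma on log2(FPKM + 1). None of the 8 had an adjusted p under 0.05 and none an unadjusted p under 0.05, and a test on the recovered reads with limma-voom called none either. Over all 12749 genes tested, 9.19% were called at the adjusted threshold (4.36% higher and 4.82% lower in si-circRtn4) and 25.9% at the unadjusted threshold. The median log2 fold change of the 8 was -0.03, beside 0.002 over all genes tested. In these bulk samples, fewer expressing cells and less RNA per cell cannot be told apart.

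The levels spanned a wide range. By the mean over the 6 libraries, Ier2 stood highest at 53.6 FPKM, followed by Jund at 49.4 FPKM and Junb at 39.0 FPKM, whose ranges over the libraries overlapped from neighbour to neighbour. Jun (24.3 FPKM), Ier3 (17.6 FPKM) and Egr1 (12.8 FPKM) came next, again with overlapping ranges, and the lowest Junb value lay above the highest Jun value. Fosl2 stood apart at 6.96 FPKM and Fos at 1.81 FPKM. Fosl1 (0.685 FPKM) and Fosb (0.356 FPKM) overlapped each other and lay below Fos in each library. Among the genes tested, the mean level of Ier2 was at the 93.0th percentile, that of Junb at the 89.4th and that of Fos at the 11.5th.

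**Figure D1:**
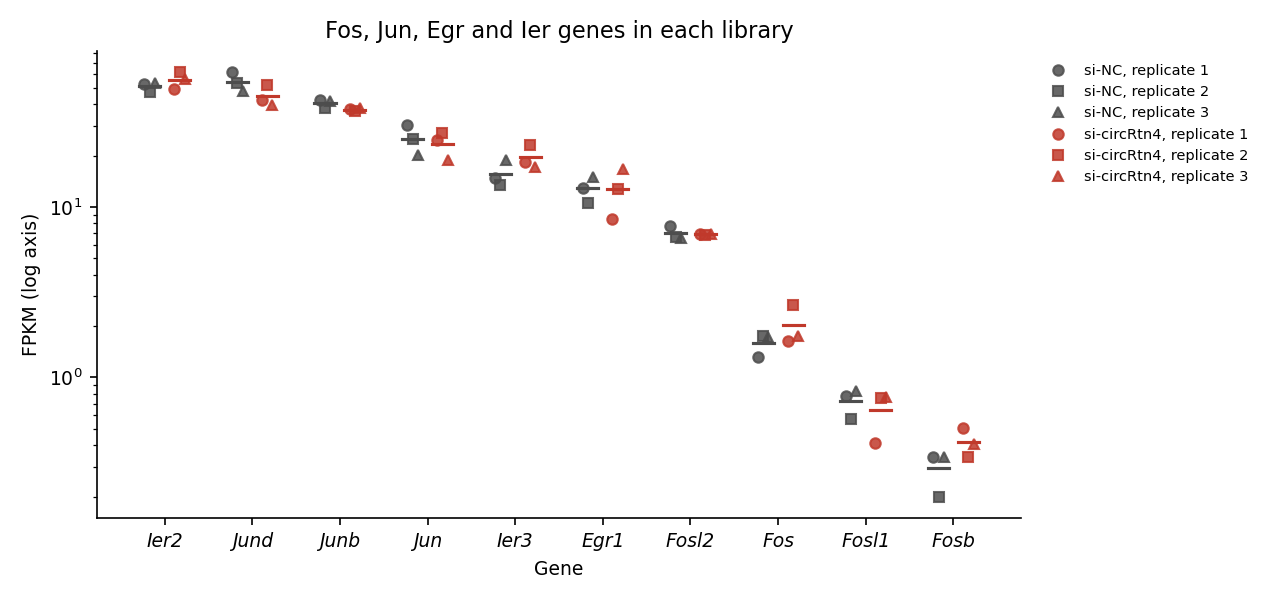
FPKM of each gene in each of the 6 libraries, on a log axis, with genes ordered by their mean level. Symbols are libraries (grey si-NC, red si-circRtn4, shape by replicate number) and lines are group means. The 2 groups overlapped for each gene tested except Junb, and Jun genes lay far above Fos genes in both groups.

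Fos, the partner of Jun proteins in the classical AP-1 dimer, was low. The gene lies on the plus strand at chr12:85473890-85477273 (GRCm38, the build of the gene coordinates given here). Its level was 1.32, 1.74 and 1.73 FPKM in si-NC and 1.64, 2.68 and 1.75 FPKM in si-circRtn4. The highest value was that of si-circRtn4 replicate 2, and the groups overlapped. The group means were 1.60 ± 0.238 FPKM (SD, n = 3) and 2.02 ± 0.567 FPKM (SD, n = 3). The log2 fold change was 0.21 (SE 0.16, 95% interval -0.16 to 0.58) with an adjusted p of 0.469 by limma. As fold changes on this scale, the interval ran from 0.892 to 1.49. The value rested on 47 to 98 reads per library, and counting error alone gave a coefficient of variation of 14.6% at the lowest count.

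Fosb (chr7:19302696-19310051, minus strand), whose truncated splice form ΔFosB accumulates in neurons under repeated stimulation, and Fosl1 (chr19:5447703-5455945, plus strand), which encodes FRA-1, were too low to be tested. Fosb was at 0.340, 0.200 and 0.343 FPKM in si-NC and 0.507, 0.340 and 0.408 FPKM in si-circRtn4, from 18 to 45 reads. Its groups overlapped only at their edges. Fosl1 was at 0.776, 0.569 and 0.837 FPKM in si-NC and 0.412, 0.753 and 0.766 FPKM in si-circRtn4, from 10 to 20 reads, and its groups overlapped. Without the filter on low values, the limma adjusted p was 0.534 for Fosb (log2 difference 0.13) and 0.818 for Fosl1 (log2 difference -0.08). The table gives 1 value per gene, so splice forms of Fosb were not separated.

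Fosl2 (chr5:32135801-32157842, plus strand), which encodes FRA-2 and is the most abundant Fos family transcript here, was the steadiest of the family. It was measured at 7.75, 6.69 and 6.58 FPKM in si-NC and 6.96, 6.85 and 6.96 FPKM in si-circRtn4. Only si-NC replicate 1 stood above the rest. The log2 fold change was -0.01 (SE 0.08, 95% interval -0.20 to 0.18, adjusted p = 0.949, limma), which as a fold change spans 0.870 to 1.13. With 891 to 1132 reads per library, its within-group spread was at the 20.4th percentile of the genes tested.

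Jun (chr4:95049034-95052222, minus strand), the strongest activator of the Jun proteins, was at 30.3, 25.0 and 20.1 FPKM in si-NC and 24.6, 27.0 and 18.9 FPKM in si-circRtn4. Replicate 3 held the lowest value of both groups. The spread within groups exceeded the difference between them, with a log2 fold change of -0.09 (SE 0.17, 95% interval -0.49 to 0.31, adjusted p = 0.792, limma).

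Junb (chr8:84974484-84978718, minus strand), which can oppose Jun at shared target genes, was at 42.3, 38.1 and 41.8 FPKM in si-NC and 37.5, 36.3 and 37.9 FPKM in si-circRtn4. It was the single gene of the 8 whose groups did not overlap, and 31.7% of all genes tested had groups that did not overlap. The means were 40.8 ± 2.29 FPKM (SD, n = 3) and 37.2 ± 0.817 FPKM (SD, n = 3). The log2 fold change was -0.13 (SE 0.07, 95% interval -0.29 to 0.04, adjusted p = 0.322, limma). The two-sided exact permutation test gave 0.1, the smallest p that 3 libraries against 3 allow. On a fold scale the interval ran from 0.817 to 1.03.

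Jund (chr8:70698949-70700616, plus strand), the Jun gene that is usually transcribed without stimulation, was at 61.9, 53.0 and 47.7 FPKM in si-NC and 42.5, 51.7 and 39.9 FPKM in si-circRtn4. It was lower in the si-circRtn4 library of each same-numbered pair, but si-circRtn4 replicate 2 lay above si-NC replicate 3. The means were 54.2 ± 7.17 FPKM (SD, n = 3) and 44.7 ± 6.20 FPKM (SD, n = 3), with a log2 fold change of -0.27 (SE 0.13, 95% interval -0.57 to 0.02, adjusted p = 0.229, limma). Among the 8 genes tested this was the largest negative value.

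Summed per library, the 3 Jun genes made 134.5, 116.2 and 109.6 FPKM in si-NC and 104.6, 115.1 and 96.7 FPKM in si-circRtn4. The 4 Fos genes made 10.2, 9.20 and 9.49 FPKM in si-NC and 9.53, 10.6 and 9.88 FPKM in si-circRtn4. Jun transcripts thus made 92.0 to 93.0% of the summed FPKM of both families in si-NC and 90.7 to 91.6% in si-circRtn4. No test was run on these shares.

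Egr1, an early growth response factor that binds GC-rich sites, was at 12.9, 10.6 and 15.0 FPKM in si-NC and 8.54, 12.8 and 16.7 FPKM in si-circRtn4. Both the lowest and the highest value belonged to si-circRtn4. The group means were 12.8 ± 2.19 FPKM and 12.7 ± 4.10 FPKM (SD, n = 3 each), and the log2 fold change was -0.05 (SE 0.22, 95% interval -0.56 to 0.47, adjusted p = 0.923, limma). Its spread within groups was at the 93.9th percentile of the genes tested, with an SD of 0.36 on the log2 scale against a median of 0.13 over all genes. It was covered by 545 to 1091 reads per library, and the interval allowed a fold change from 0.677 to 1.38.

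Ier2 (chr8:84661331-84662852, minus strand), a short serum-induced nuclear protein gene, was at 52.9, 47.5 and 53.6 FPKM in si-NC and 49.2, 61.7 and 56.6 FPKM in si-circRtn4. The log2 fold change was 0.12 (SE 0.10, 95% interval -0.12 to 0.35, adjusted p = 0.521, limma), and the groups overlapped. Ier3 (chr17:35821684-35822923, plus strand), an early response gene linked to survival and stress signalling and not itself a DNA-binding factor, was at 14.9, 13.4 and 18.8 FPKM in si-NC and 18.3, 23.2 and 17.1 FPKM in si-circRtn4. It was higher in 2 of 3 same-numbered pairs, and si-NC replicate 3 exceeded both si-circRtn4 replicates 1 and 3. Its log2 fold change of 0.30 (SE 0.15, 95% interval -0.05 to 0.65, adjusted p = 0.255, limma) was the largest positive value of the 8.

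**Figure D2:**
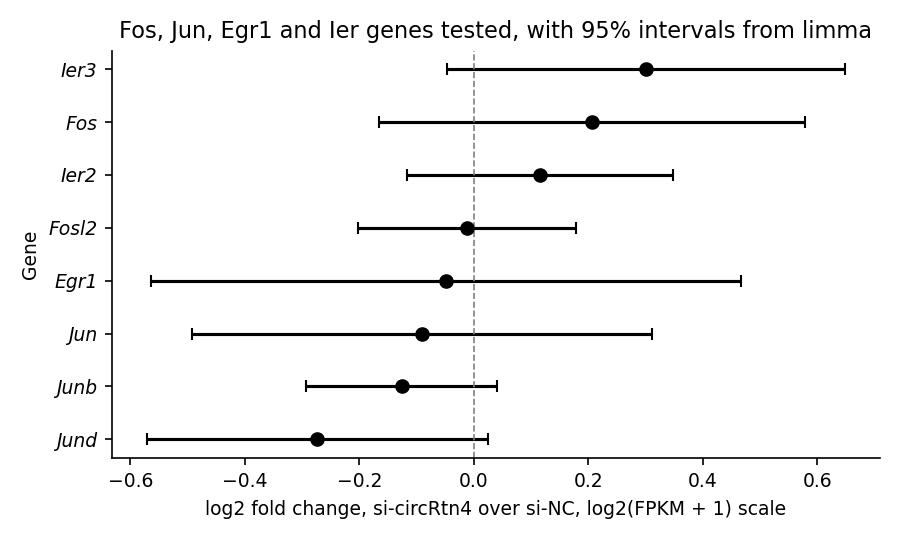
Log2 fold change of the 8 genes tested (si-circRtn4 over si-NC, on the log2(FPKM + 1) scale), with the 95% interval of the limma fit. Each interval crosses the dashed line at 0, from Jund at -0.27 to Ier3 at 0.30.

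Libraries of the same replicate number tended to deviate together, a pattern that was not tested, so each gene was also read by pairs. Fos and Fosb were higher in si-circRtn4 in 3 of 3 pairs, and Junb and Jund were lower in 3 of 3 pairs. The Fos values of replicate 3 were nearly equal, at 1.732 FPKM in si-NC and 1.755 FPKM in si-circRtn4. Pairs were not counted over all genes, so these counts have no background beside them. The other 6 genes of the 10 were split 2 to 1. With the replicate number as a block, none of the 8 genes was called, the lowest adjusted p being 0.112 for Jund (limma), whereas 19.0% of all genes tested were called under this block.

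**Figure D3:**
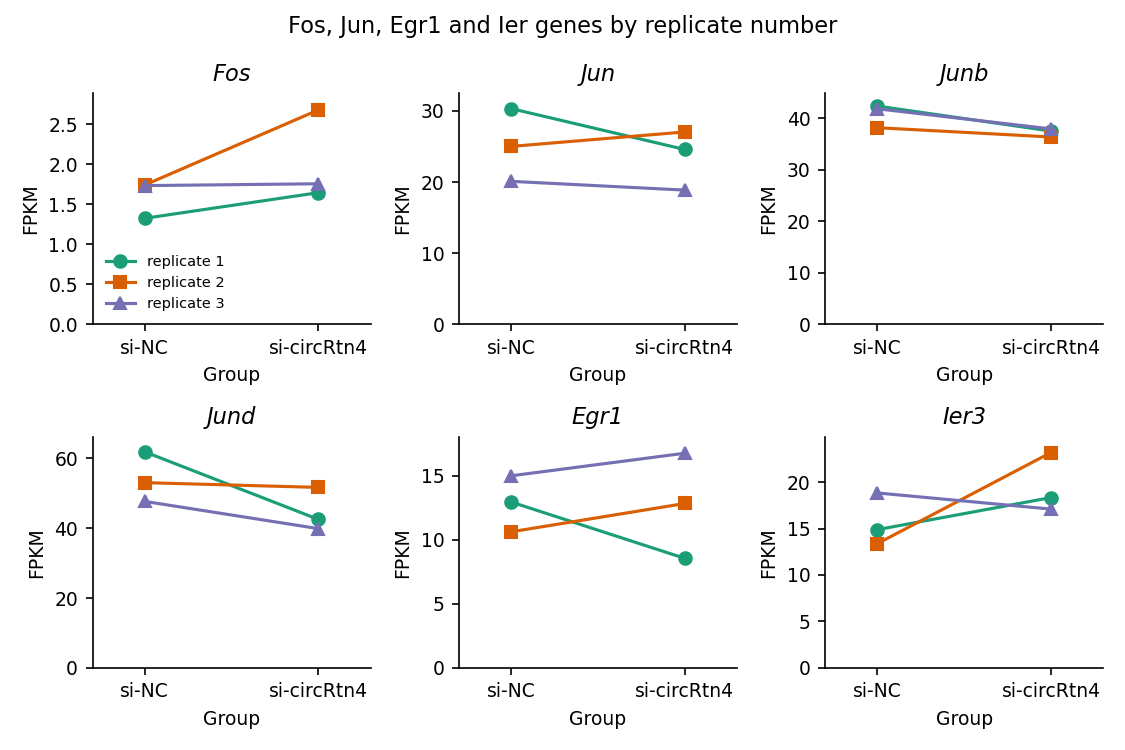
FPKM of 6 of the genes, with a line joining the si-NC and si-circRtn4 libraries of the same replicate number. The Jun values of replicate 3 and the Fos values of replicate 1 were the lowest in both groups, while the Egr1 line of replicate 1 runs against the other 2.

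Likeness of pattern is described here by Pearson's r of log2(FPKM + 1) over the same 6 libraries, among protein-coding genes tested, with no test. For Fos the highest r were those of Pigw (0.991), Rexo2 (0.989) and Nploc4 (0.987). For Jun they were 3110040N11Rik (0.992), Bcl2l11 (0.984) and Arhgef40 (0.978), and for Egr1 they were Wwc1 (0.997), Dazap1 (0.990) and Supt5 (0.988). These are the highest of all genes tested, over only 6 points that share depth and group.

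The genes share a low exon number, which the choice by symbol did not use, but not a short 3′ UTR, which runs from 485 bases in Junb to 4653 in Fosl2 around a median of 1169 for genes tested. In GENCODE M21, Jun, Junb, Jund and Ier2 each have 1 exon in the transcript used, as do 2.27% of the protein-coding genes tested, Egr1 and Ier3 have 2, and the 4 Fos genes have 4, against a median of 9. The AU pentamer ATTTA was found 8 times in the 3′ UTR of Fosl2, 5 times in Ier3 and 4 times each in Fos and Jun, and was absent only from Ier2. At least 1 pentamer occurs in 69.5% of the genes tested, with a median of 2. The AU nonamer TTATTTATT occurred in Fos and Fosl2, and in 8.39% of genes tested.

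RefSeq promoter windows (GRCm38.p6) span 250 bases before to 50 after the RefSeq start, from which the distances below count. That start can differ from the gene start given above, as it does for Junb. The windows of Jund (chr8:70697489-70697788) and Fosl2 (chr5:32136222-32136521) do not hold the gene start given above. Windows were read for Fos, Fosb, Fosl2, Jun, Junb, Jund and Ier3. The core of the cAMP response element, TGACG, on either strand, occurred in 3 of these 7 (Fos, Fosb and Junb) and in 20.8% of all 32851 windows, and it forms part of the full element TGACGTCA. The core was searched after the full element had been found in none of the 7. The windows are shown because CREB family factors at such a site are the textbook route by which calcium and cAMP reach Fos. The Fos window holds a second core 129 bases before the start. Capitals mark the core.
Fos, start -66, chr12:85473812-85473840, plus strand: agttccgcccagTGACGtaggaagtccat
Fos, start -129, chr12:85473749-85473777, plus strand: ggggcgtagagtTGACGacagagcgcccg
Fosb, start -60, chr7:19310089-19310117, minus strand: tggagttgcgggTGACGcaagcgcggggg
Junb, start -106, chr8:84978838-84978866, minus strand: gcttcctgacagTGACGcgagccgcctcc
The TATA motif TATAAA was found in 2 of the 7 windows, Fos and Junb, and in 13.6% of all windows. The Junb motif begins at the RefSeq start itself. The Fos motif lies 33 bases before the start, with its letters in capitals.
Fos TATA, chr12:85473845-85473874, plus strand: tcacagcgcttcTATAAAggcgccagctga
Neither TGACGTCA (1.79% of all windows), the AP-1 site TGANTCA (7.81%), the EGR site GCGTGGGCG (0.612%) nor the CArG box bound by SRF (1.63%) occurred in any of the 7, which says only that these letters are not in these windows.

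Other immediate early genes were called in both directions. Of 33 listed, 24 passed the filter and 8 were called (33.3%, beside 9.19% of all genes tested), 5 higher and 3 lower in si-circRtn4. The other 16 did not pass without a block. With the replicate number as a block, 9 were called higher and 5 lower, beside 19.0% of all genes tested, and Klf10 (adjusted p = 0.0470, limma) and Gem (0.0310) were added among the lower and Ier5 (0.0387), Arc (0.0264), Csrnp1 (0.0296) and Errfi1 (0.0244) among the higher. These 6 are likewise named after their values were seen. The median log2 fold change of the 24 was 0.20, beside 0.002 over all genes. The list was written from textbook knowledge with earlier results of these data known, and it was given no test of its own.

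Among the NR4A genes, Nr4a3 and Nr4a2 were called, both lower, and Nr4a1, the most abundant of them, was not called. Nr4a1 was at 7.58 ± 0.61 FPKM in si-NC and 7.77 ± 0.21 FPKM in si-circRtn4 (SD, n = 3 each). Its log2 fold change was 0.03 (adjusted p = 0.831, limma). Nr4a3 (NOR-1), an orphan nuclear receptor, was at 2.84, 2.19 and 2.42 FPKM in si-NC and 0.986, 0.676 and 0.942 FPKM in si-circRtn4. Each si-circRtn4 library lay below each si-NC library. The log2 fold change was -0.90 (SE 0.13, adjusted p = 0.00990, limma). Nr4a2 (NURR1), a nuclear receptor that directs dopaminergic fate, was at 4.20, 3.28 and 2.55 FPKM in si-NC and 2.06, 1.58 and 1.08 FPKM in si-circRtn4. Its log2 fold change was -0.75 (SE 0.19, adjusted p = 0.0481, limma), and leaving out any 1 library took the adjusted p to between 0.0504 and 0.130. Btg2, an antiproliferative gene, fell from 10.9 ± 1.18 to 7.08 ± 0.441 FPKM (SD, n = 3 each), with a log2 change of -0.56 (SE 0.09, adjusted p = 0.0135, limma). That call was lost without si-circRtn4 replicate 2, at an adjusted p of 0.0532 (limma).

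Of 10 tested bZIP factor genes whose products can pair with AP-1 proteins (13 listed), Atf3 and Maff were called, both higher, and the other 8 did not pass. Atf3, which dimerizes with Jun proteins and is induced by stress, was at 10.6, 12.1 and 12.9 FPKM in si-NC and 20.6, 28.7 and 19.7 FPKM in si-circRtn4. Its groups were far apart, with a log2 fold change of 0.89 (SE 0.15, adjusted p = 0.0127, limma), and the call held without each library in turn. Maff, a small Maf factor without an activation domain, was at 6.998, 8.21 and 13.0 FPKM in si-NC and 15.4, 17.3 and 18.6 FPKM in si-circRtn4. Its log2 fold change was 0.84 (SE 0.20, adjusted p = 0.0393, limma), and the call held only when si-NC replicate 3 was left out, among the 6 libraries. The median log2 fold change of the 10 tested partners was 0.20, beside 0.002 over all genes.

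Phlda1 rose from 2.38 ± 0.252 to 4.20 ± 0.762 FPKM (SD, n = 3 each, log2 fold change 0.61, SE 0.13, adjusted p = 0.0298, limma). Nfil3, a bZIP repressor, rose from 16.4 ± 1.93 to 23.1 ± 2.07 FPKM (log2 fold change 0.47, adjusted p = 0.0342, limma). Sik1, a salt-inducible kinase that holds CREB coactivators in the cytoplasm, rose from 7.53 ± 0.480 to 9.96 ± 0.371 FPKM (log2 fold change 0.36, adjusted p = 0.0284, limma). With 5 libraries fewer genes were called in all, and these 3 calls were mostly lost while the log2 fold changes stayed between 0.52 and 0.73 for Phlda1, 0.38 and 0.54 for Nfil3, and 0.31 and 0.39 for Sik1. The Phlda1 call held only without si-circRtn4 replicate 3, no omission kept the Nfil3 call, and 1 of 6 kept the Sik1 call. Btg2, Nfil3, Sik1 and Nr4a1 are named beyond the naming rule, after their values were seen.

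**Figure D4:**
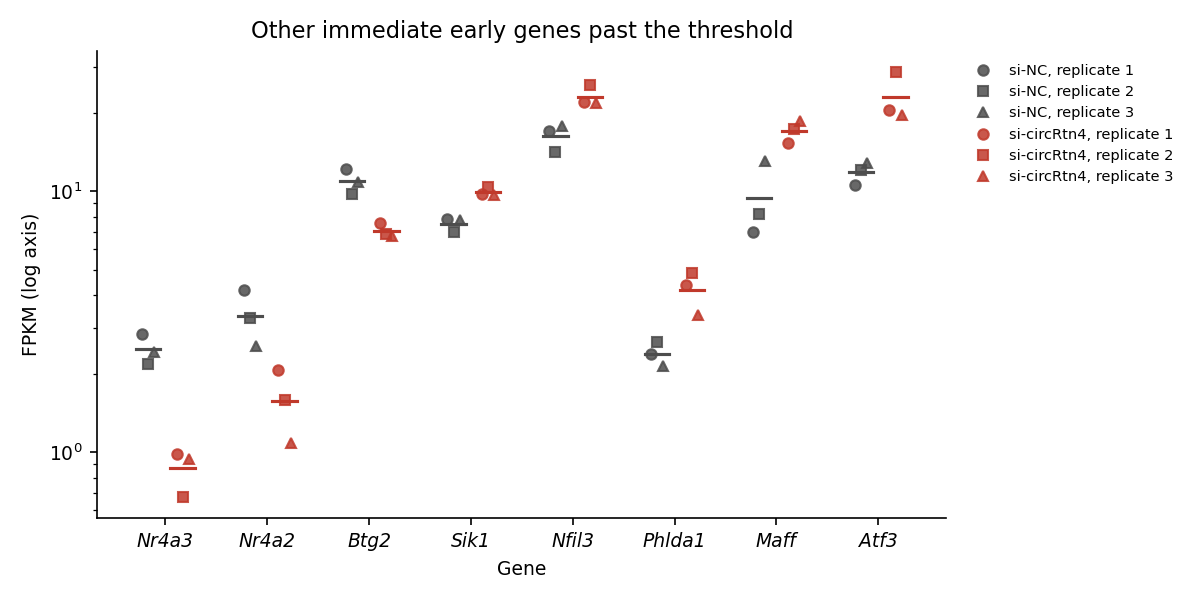
FPKM of the 8 called immediate early genes outside the Fos, Jun, Egr1 and Ier group, per library on a log axis, with lines at group means. Nr4a3, Nr4a2 and Btg2 lie lower in si-circRtn4 (red) and the other 5 higher, without overlap of the groups. The genes were chosen by their calls in these same libraries, so the separation adds no support. Of all genes tested, 31.7% had groups without overlap.

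Among brakes on these genes and on their kinases, the phosphatase genes Dusp4 and Dusp5 rose. Dusp4, a nuclear phosphatase that inactivates ERK and JNK, was at 63.0, 68.2 and 76.6 FPKM in si-NC and 146.1, 161.3 and 129.8 FPKM in si-circRtn4. The lowest si-circRtn4 value was well above the highest si-NC value, and the log2 fold change was 1.06 (SE 0.11, adjusted p = 0.00283, limma). Dusp5, a nuclear ERK phosphatase, rose from 9.59 ± 0.778 to 14.3 ± 1.92 FPKM (SD, n = 3 each, log2 fold change 0.52, SE 0.11, adjusted p = 0.0270, limma), a call that 2 of 6 single-library omissions kept. The other 9 of 11 tested brakes, a list that also holds mRNA decay factors, ubiquitin ligases and EGR corepressors, did not pass. Of the 11, 18.2% were called, beside 9.19% of all genes tested, and their median was 0.21, beside 0.002 over all genes.

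Of 15 tested factors that bind immediate early promoters, Stat3 alone was called (6.67%), rising from 8.53 ± 0.611 to 12.6 ± 0.993 FPKM (SD, n = 3 each, log2 fold change 0.51, SE 0.09, adjusted p = 0.0142, limma), and without si-NC replicate 2 its adjusted p was 0.0595. Of 22 tested kinases of the MAP kinase cascades, 2 were called (9.09%). Mapkapk2, the kinase MK2 downstream of p38, rose from 8.23 ± 1.37 to 13.1 ± 1.65 FPKM (log2 fold change 0.61, adjusted p = 0.0309, limma). Mapk10, the neuronal JNK3, fell from 2.75 ± 0.453 to 1.60 ± 0.186 FPKM (log2 fold change -0.53, adjusted p = 0.0465, limma). Leaving out single libraries kept the Mapkapk2 call 2 times and the Mapk10 call 1 time in 6. The medians were -0.04 for the factors and -0.02 for the kinases. Over all genes tested, the median was 0.002 and 9.19% were called. With the replicate block, 1 kinase was called higher and 3 lower, while the block called 19.0% of all genes tested.

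Among 12 tested textbook targets of AP-1 and EGR1 (25 listed), 5 were called (41.7%, beside 9.19% of all genes tested), 3 higher and 2 lower. The median log2 fold change was 0.28, beside 0.002 over all genes. Hmox1, heme oxygenase 1, rose from 21.1 ± 2.89 to 40.3 ± 8.92 FPKM (SD, n = 3 each, log2 fold change 0.89, SE 0.16, adjusted p = 0.0192, limma). Vegfa, an angiogenic growth factor, rose from 60.8 ± 9.88 to 89.8 ± 10.0 FPKM (log2 fold change 0.56, adjusted p = 0.0404, limma), and Plaur, the urokinase receptor, from 10.98 ± 1.495 to 16.3 ± 1.88 FPKM (log2 fold change 0.53, adjusted p = 0.0342, limma). Tgfb1 fell from 3.35 ± 0.343 to 1.97 ± 0.448 FPKM (log2 fold change -0.56, adjusted p = 0.0474, limma). Ccnd1, cyclin D1, fell from 80.1 ± 0.844 to 58.6 ± 2.12 FPKM (log2 fold change -0.45, SE 0.07, adjusted p = 0.00970, limma). Of the 6 omissions of a library, 5 kept the Ccnd1 call (lost without si-NC replicate 2), 4 the Hmox1 call (lost without si-NC replicate 2 or si-circRtn4 replicate 1), 2 the Plaur call, 1 the Vegfa call and 0 the Tgfb1 call. With the replicate block, 7 targets were called higher and 2 lower, while the block called 19.0% of all genes tested. Each of these genes has other regulators.

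**Figure D5:**
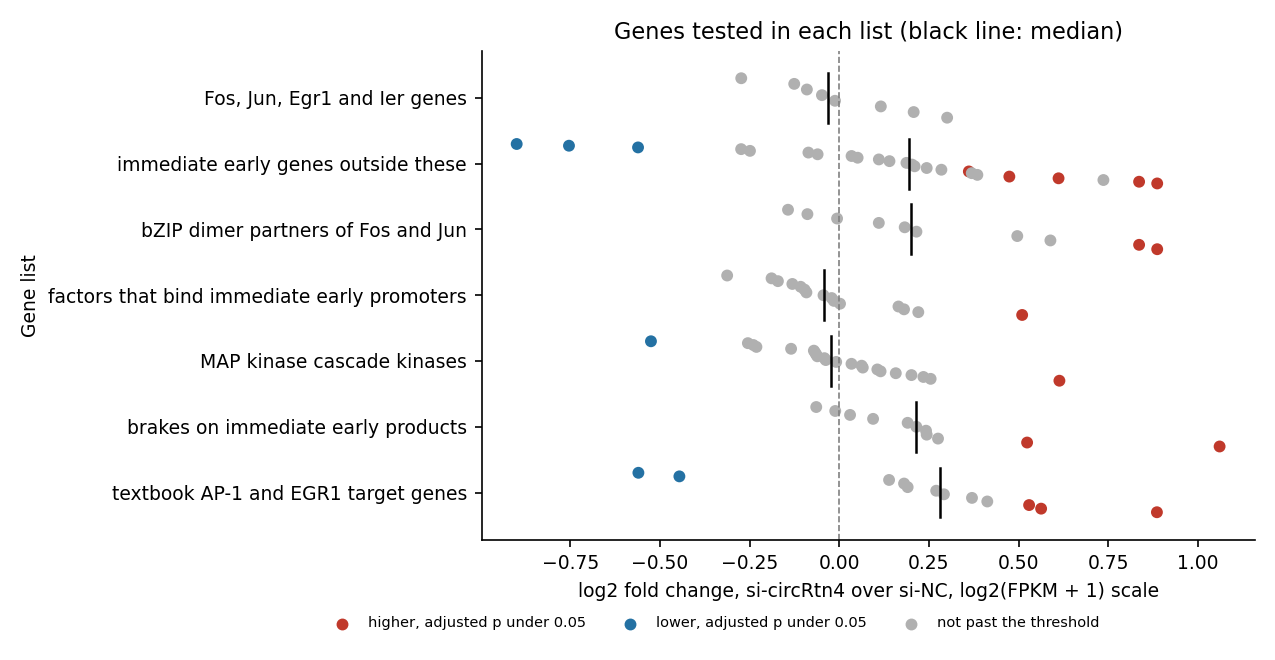
Log2 fold change of each tested gene of the Fos, Jun, Egr1 and Ier group and of 6 pathway lists. Red and blue points are genes called higher and lower in si-circRtn4, grey points are not past the threshold, and black lines are medians. The Fos, Jun, Egr1 and Ier genes are all grey, between -0.27 and 0.30.

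The libraries held 13541198 to 15122063 reads on genes. Of 11 neuroblastoma and neuronal markers tested, 5 (Th, Dbh, Phox2a, Chga and Chgb) were called lower and 6 were not called (45.5% called, beside 9.19% of all genes tested). The summed level of all 12 listed markers was 2499 to 2753 FPKM in si-NC and 1074 to 1536 FPKM in si-circRtn4. This sum, in which the most abundant markers weigh most, moved with the groups. The part of the markers in the results above was not tested. Of 12 markers of other cell types, 1 (Mbp) reached 1 FPKM, 3 were at 0 in every library, and the sums were 5.50 to 6.83 FPKM in si-NC and 4.43 to 6.67 FPKM in si-circRtn4. The host gene Rtn4 was at 61.0, 66.8 and 69.8 FPKM in si-NC and 50.1, 56.7 and 62.7 FPKM in si-circRtn4 (log2 fold change -0.22, adjusted p = 0.216, limma, and 0.0447 with the replicate number as a block). Gene FPKM does not separate the circular from the linear RNA, so it checks the knockdown of neither. Chd5, which the study examined downstream of circRtn4, fell from 10.4 ± 1.22 to 3.83 ± 0.262 FPKM (SD, n = 3 each, log2 fold change -1.23, adjusted p = 0.00139, limma).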

How the data were processed

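RNA from 6 N2a libraries (3 si-NC, 3 si-circRtn4) was sequenced. The authors deposited FPKM values per gene in 1 table, and 6 further columns of other samples were not used. The submitters' processing notes name Bowtie 0.12.2 and the builds mm8 and mm9, whereas 53499 of 54532 genes have the coordinates of GENCODE M21 (GRCm38). The counting tool is not given in the sources used here. Groups and replicate numbers came from the sample titles and descriptions.

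Reads per gene were recovered from FPKM and gene length, and 100% of values came out whole (tolerance 0.01). Log2(FPKM + 1) was fitted in R 4.3.3 by limma 3.58.1, with a trended eBayes step, for the 12749 genes averaging 1 FPKM or more, with Benjamini-Hochberg adjustment over all of them and a threshold of 0.05. Fold changes on this scale understate those of low genes. Single genes also had a two-sided exact permutation test (scipy 1.17.1; smallest p 0.1). The fits were also run on simulated libraries that were independent of each other, without the pairing described next. That run does not show how the fits behave on these libraries. Deviations from group means correlated at 0.331, 0.190 and 0.226 across genes between libraries of the same number in the labels and at most 0.00913 otherwise. Within a group these deviations cancel out for each gene, so the same-number and other correlations are not independent. The numbers were taken to pair the libraries on this description, which was not tested. The study's unpaired design was kept, with the block as an alternative.

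The genes and lists were chosen with earlier results of these data known. Named were all 10 genes, up to 5 called genes of each list by size of change, the 3 genes most like Fos, Jun and Egr1, and Rtn4 and Chd5.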

Additional observations from a re-analysis of the deposited data

How the results depend on the processing

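None of the 8 tested genes of the Fos, Jun, Egr1 and Ier group was called under any alternative run that tested it. The runs used a pseudocount of 0.1, no filter, a mean of at least 5 FPKM, TPM with and without Gm23935, and quantile normalization. Limma-voom, the replicate block and each library left out were the others. Fos was not tested in the run with a mean of at least 5 FPKM. The planned edgeR and DESeq2 fits were not run, because the deposited values are FPKM. Without the filter, 210 genes were called higher and 261 lower (556 and 615 in the report), with more genes tested. On TPM, 972 were higher and 393 lower, so that 71.2% of calls were higher against 47.5%, and the median of all genes moved to 0.09. With the replicate block, 1185 were higher and 1243 lower. No pathway call was lost, and the pathway calls rose from 12 higher and 6 lower to 22 higher and 10 lower. Rtn4 was gained as well. Leaving out 1 library gave 163 to 407 higher and 217 to 419 lower, with fewest without si-NC replicate 2. The log2 difference of Fosb was 0.40 with a pseudocount of 0.1 and 0.30 on TPM. Direction turned for Fosl2 on TPM (0.076) and TPM without Gm23935 (0.0085), and for Egr1 on TPM (0.038), and it turned between single omissions, which ran from -0.05 to 0.054 for Fosl2, -0.14 to 0.03 for Fosl1, -0.24 to 0.053 for Jun and -0.26 to 0.19 for Egr1. The causes were not tested. List medians on TPM were 0.30 for other immediate early genes, 0.30 for bZIP partners, 0.039 for promoter-binding factors, 0.068 for kinases, 0.31 for brakes and 0.39 for targets. Over single omissions they ran from 0.11 to 0.23, 0.14 to 0.26, -0.0895 to -0.022, -0.043 to 0.038, 0.12 to 0.25 and 0.26 to 0.33. Of the 18 pathway calls, 5 were kept without the filter, 4 to 11 with a library left out, and Nr4a3 and Dusp4 in each fit that tested them. Genes under about 1 FPKM rest on too few reads for small differences to be detectable.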

Other observations

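Egr2 and Egr3, zinc finger relatives of Egr1 that were under the filter, are given here after their values were seen. Egr2 was at 0.565, 0.367 and 0.547 FPKM in si-NC and 1.014, 0.908 and 1.11 FPKM in si-circRtn4, from 18 to 55 reads per library. Egr3 was at 0.481, 0.630 and 0.681 FPKM in si-NC and 0.861, 1.36 and 1.56 FPKM in si-circRtn4, from 32 to 100 reads. The lowest si-circRtn4 value lay above the highest si-NC value for both genes, whereas the groups of Egr1 overlapped. Groups without overlap were common, at 31.7% of all genes tested, a set that does not include Egr2 and Egr3. In the limma fit without a filter, the log2 fold changes were 0.43 (SE 0.11, adjusted p = 0.131) for Egr2 and 0.49 (SE 0.16, adjusted p = 0.212) for Egr3, neither of which passed the threshold. The activity-dependent factor Npas4 was at 0.627, 0.804 and 0.654 FPKM in si-NC and 0.686, 0.980 and 1.22 FPKM in si-circRtn4, with overlapping groups.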
